A study of Mus musculus with 7 samples.

Results

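The 53 genes described here are the cyclins, the cyclin-dependent kinases (CDKs) and the genes of DNA replication and mitosis that could be read in the liver of old mice. They were picked by name, not by signal. A gene was taken if its symbol belonged to the cyclin (Ccna to Ccnk), Cdk, Cdc or Mcm2 to Mcm7 series, or was Pcna, Mki67, Top2a, Rrm1, Rrm2, Plk1, Aurka or Bub1. These genes had 72 probe sets on the array, and each gene was represented by its brightest probe set. They are 53 of the 8251 genes that the array measured with a probe set of a single gene name. A further 19 genes on the role lists used here, among them Ccnb1, Cdk6, Ccnh, Cdc27 and Tyms, had no such probe set and were not analysed here.

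Total liver RNA from 7 female mice, each on 1 Affymetrix U74Av2 array, formed the study's only group. The sample titles and source names give phenotypically normal mice of genotype +/+ or +/df, where df is the recessive Ames dwarf allele. All had unrestricted standard pelleted food and were killed at 24 to 26 months of age. The description field names the dwarf genotype df/df instead, so the labels disagree, and the titles were followed here. The titles number the mice 1, 2, 3, 4, 6, 7 and 8, and these numbers name the replicates. Each label describes a mouse, but none says in so many words that the 7 were different ones, so p-values measure the spread between these 7 samples, part of which may be technical. With 1 group there is no comparison of conditions: the data give a level for each gene and how far the animals differed.

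Cyclins are proteins whose amounts rise and fall through the cell cycle, and each switches on partner kinases, the CDKs. D-type cyclins with Cdk4 and E-type cyclins with Cdk2 carry a cell out of G1 by releasing E2F transcription factors from the retinoblastoma protein, A-type and B-type cyclins with Cdk2 and Cdk1 drive S phase and mitosis, and the anaphase promoting complex then destroys the mitotic cyclins. The Mcm proteins form the ring helicase that is loaded on replication origins before S phase. Most hepatocytes of an adult liver are out of the cycle and can re-enter it after loss of tissue. Several relatives share the cyclin or Cdk name and serve transcription, neurons or other cell functions.

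Signals are array intensities in arbitrary units, scaled to 1 trimmed mean of 500.4 on every array, and are given as mean ± SD over the 7 arrays. A signal depends on a probe set's own binding as well as on the amount of RNA, so genes are not ordered here as amounts of RNA. Signals below 50.04 were treated as at the floor, and genes with a mean of at least 200.1 were tested for spread. Of the 53 genes, 28 reached that mean (52.8%), beside 54.3% of all 8251 genes. The share differed between the role groups described below. The median of the mean signals was 205, beside 243 for all genes, at the 46.3rd percentile. On every array 6 of the genes were below the floor, namely Cdk1, Top2a, Bub1, Mcm6, Cdc7 and Ccne2, and 12.5% of all genes were. In bulk liver, few cells with much of an RNA and many cells with little of it cannot be told apart. The genes nearest the minimum were Cdk2 (169), Mcm2 (178), Mcm5 (198) and Mcm7 (198) below it and Ccnf (204), Cdk7 (205), Ccng2 (230) and Ccng1 (237) above it.

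**Figure D1:**
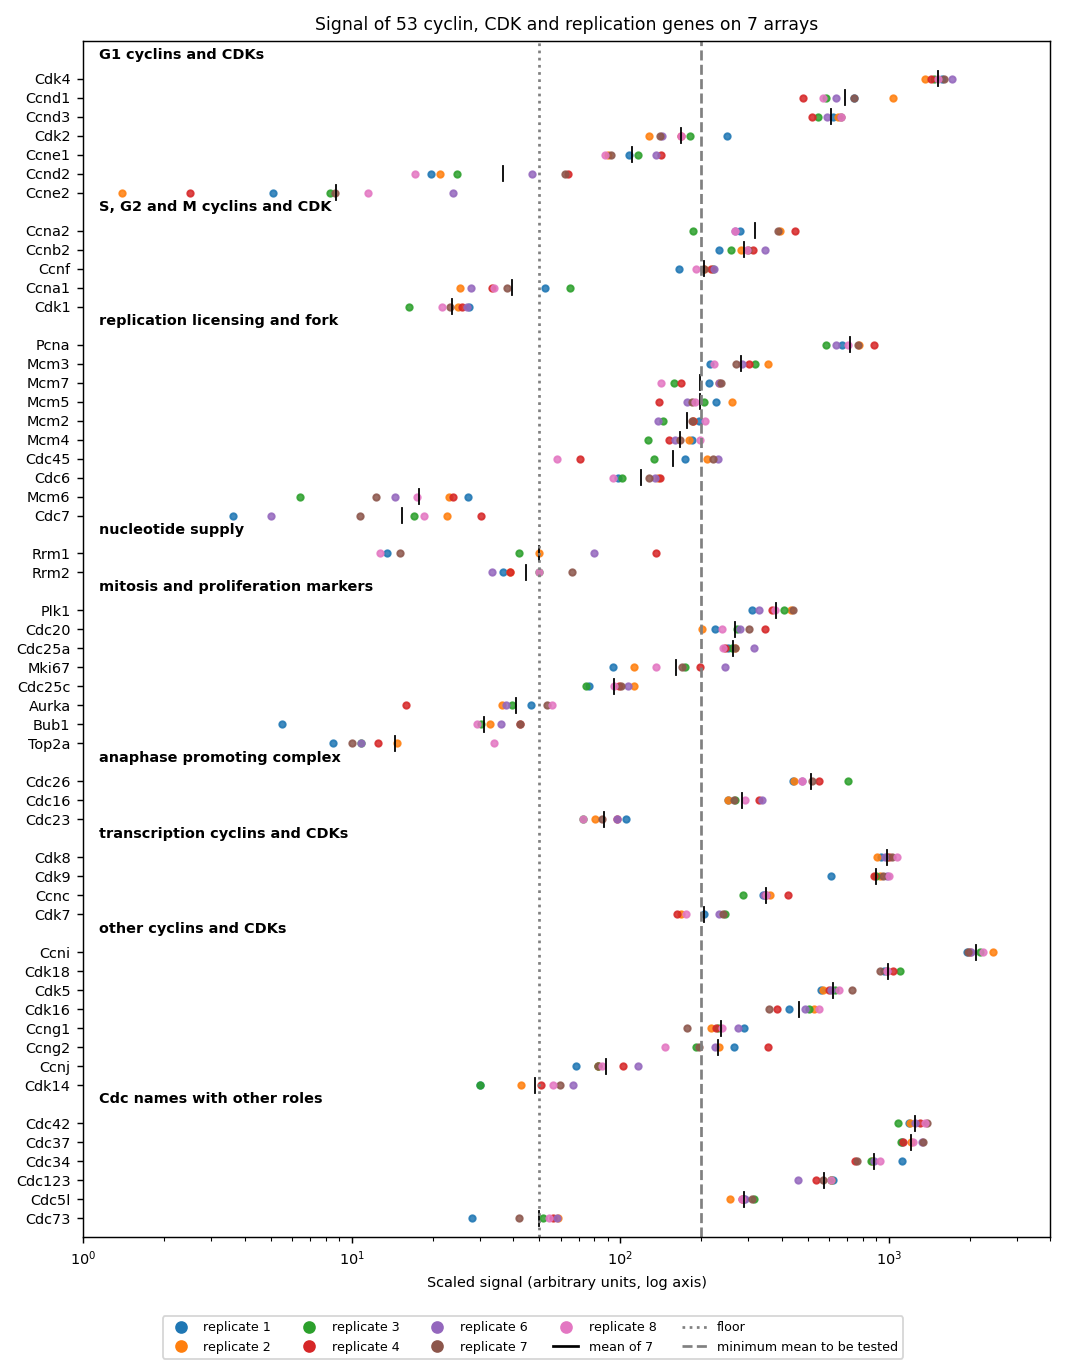
Scaled signal (x axis, arbitrary units, log axis) of the 53 genes (y axis, grouped by role) on each of 7 arrays (coloured points), with the mean (black tick), the floor of 50.04 (dotted line) and the minimum mean of 200.1 for the test of spread (dashed line). Cdk1, Top2a, Bub1, Mcm6, Cdc7 and Ccne2 lie left of the floor on all 7 arrays.

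The arrays were alike in scale, with medians from 157 to 170.05. The bacterial spike-in controls split them into a set with high spike-in signal, replicates 1 to 4 (mean log2 signal 10.64 to 10.97), and a set with low signal, replicates 6 to 8 (10.20 to 10.24). The ratio of 3' to 5' probe sets, a sign of RNA quality, ran from 0.788 to 0.907 for Gapdh and from 1.31 to 1.78 for beta-actin. All 7 hepatocyte markers on the marker list were far above the minimum, with means from 7180 to 31853. Of the other marker lists, the endothelial (6 genes), stellate (5) and red cell (5) markers measured were above the floor on every array. Below the floor on every array were Krt7 and Epcam of 3 bile duct markers, Cd3g, Cd3d and Cd8a of 6 T and NK cell markers and Cd22 of 5 B cell markers. Of 8 macrophage markers Marco was below it on 6 arrays. The mean of Cd4, another T cell marker, was 252.

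Among the G1 cyclins and CDKs, 3 of 7 measured genes reached the minimum: Cdk4, Ccnd1 and Ccnd3. Cdk4 (NCBI gene 12567), the kinase that D-type cyclins activate, had a signal of 1530 ± 118 (SD, n = 7), with a lowest value of 1360, a median of 1522 and a highest of 1715. Its 7 values lay close together, within 1.26-fold. Ccnd1 (NCBI gene 12443), cyclin D1, the cyclin whose induction carries hepatocytes into the cycle, had 685 ± 182, with 480 in replicate 4, a median of 639 and 1039 in replicate 2. Replicate 2 stood well above the second highest value of 744. Ccnd3, a D-type cyclin, had 607 ± 58.2, between 516 and 665 with a median of 622.

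The remaining G1 genes were dim. Cdk2, the partner of E-type and A-type cyclins, had 169 ± 40.7, and Ccne1, which starts S phase with it, had 110 ± 22.1. Ccnd2 was below the floor on 5 arrays, with a mean of 36.6. Ccne2 was below it on all 7, with a mean of 8.77.

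Of the cyclins that act in S phase, G2 and mitosis, Ccna2, Ccnb2 and Ccnf reached the minimum. Cdk1, a kinase of A-type and B-type cyclins, did not. Ccna2 (NCBI gene 12428), cyclin A2, which serves both S phase and entry into mitosis, had 319 ± 92.0, with 187 in replicate 3, a median of 279 and 446 in replicate 4. Replicates 2, 4 and 7 were high, between 388 and 446, and replicate 3 was lowest, with a second lowest value of 267. Ccnb2 (cyclin B2) had 290 ± 36.6, between 234 and 346 with a median of 297. Ccnf, a cyclin-like F-box protein that marks targets for breakdown, had 204 ± 20.7, between 165 and 224 with a median of 206. Cdk1 (NCBI gene 12534), the kinase of mitosis, was at 23.7 ± 3.82, between 16.3 and 27.3 with a median of 24.9. Ccna1, a cyclin best known from the germ line, was below the floor on 5 of 7 arrays with a mean of 39.4.

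In the replication group, Pcna and Mcm3 alone among 10 genes reached the minimum. Pcna (NCBI gene 18538), the sliding clamp of DNA polymerase, also used in DNA repair, had 717 ± 101, with 584 in replicate 3, a median of 703 and 884 in replicate 4. The spread of Pcna was modest, and its lowest and highest animals were those of Ccna2. Mcm3 had 281 ± 50.1, between 216 and 356 with a median of 284. The helicase subunits Mcm7 (198 ± 40.6), Mcm5 (198 ± 38.6), Mcm2 (178 ± 26.3) and Mcm4 (167 ± 23.5) lay just below the minimum and above the floor on every array. Mcm7 ran from 142 to 237 with a median of 215. Mcm6, a subunit of the same ring, was below the floor on all arrays (17.8 ± 7.32). As probe sets differ in binding, these signals do not give the ratio of the subunits.

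Cdc45, which activates the loaded helicase, had 157 ± 71.3 and the widest range of the group above the floor, from 58.3 in replicate 8 to 232 in replicate 6. That was 3.97-fold. Replicates 4 and 8 were low, at 70.6 and 58.3, and the remaining 5 arrays lay between 134 and 232. Cdc6, the loader of the Mcm ring, had 119 ± 20.5, and Cdc7, a kinase that fires origins, was below the floor on all 7 arrays at 15.4 ± 9.61.

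E2F factors drive many of these genes in dividing cells, and their promoters were read for the E2F letters. RefSeq (GRCm38.p6) gave 49 promoter windows, from 250 bases before to 50 after the gene start, for 45 of the 53 genes. Both strands were searched for TTTNNCGC. These letters stood in 16.3% of the windows of these genes, in 7.39% of the windows of all array genes and in 5.17% of all 32851 windows. In the replication group 5 of 9 genes held them. The windows below show Mcm5, Mcm6, Mcm7, their loader Cdc6 and Cdk1, on the strand of the gene, with the match in capitals. Mcm3 also held the letters and is not shown. Matches on opposite strands can overlap each other, and none shown overlaps the CHR letters given further on. A match describes the letters and shows no bound factor.

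Cdc6, chr11:98907996-98908037, plus strand: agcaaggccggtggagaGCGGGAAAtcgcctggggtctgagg
Mcm5, chr8:75109339-75109380, plus strand: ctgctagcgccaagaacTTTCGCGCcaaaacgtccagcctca
Mcm6, chr1:128359791-128359832, minus strand: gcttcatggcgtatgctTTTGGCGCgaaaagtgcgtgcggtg
Mcm7, chr5:138172024-138172065, minus strand: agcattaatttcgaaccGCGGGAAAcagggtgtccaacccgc
Cdk1, chr10:69353019-69353060, minus strand: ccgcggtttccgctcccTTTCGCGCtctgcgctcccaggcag

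Of the 8 genes with these letters, 2 reached the minimum, Mcm3 (281) and Cdc25a (264). Both did so on their brightest probe set only. The second probe set had a mean of 68.5 for Mcm3 and 27.9 for Cdc25a. The second probe set of Mcm3 did not follow the first, with r of 0.0776. That of Cdc25a had a mean below the floor and a highest value of 54.3. Its r of −0.329 therefore cannot show whether it followed the first. Mcm5, Mcm7, Cdk2 and Cdc6 lay below the minimum, and Mcm6 and Cdk1 below the floor on every array.

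The nucleotide supply genes were dim in most animals. Rrm1 and Rrm2 encode the large and the small subunit of ribonucleotide reductase, which makes the building blocks of DNA. Rrm1 had 49.9 ± 45.1, with a lowest value of 12.8, a median of 42.1 and a highest of 136 in replicate 4. It was below the floor on 5 arrays, and replicates 4 and 6 (80.2) were the highest. Rrm2 had 44.8 ± 11.5, between 33.3 and 66.4 with a median of 38.8, and was below the floor on 6 arrays.

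Of 8 genes used as marks of mitosis and proliferation, Plk1, Cdc20 and Cdc25a reached the minimum. Plk1 (NCBI gene 18817), a kinase of mitotic entry, had 380 ± 49.1, between 311 and 441 with a median of 376. Cdc20, the activator of the anaphase promoting complex, had 267 ± 49.1, between 202 and 348 with a median of 271. Cdc25a, a phosphatase that activates CDKs, had 264 ± 24.4, between 241 and 314 with a median of 261.

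The other 5 genes of this group, Mki67 and Top2a among them, stayed below the minimum. Mki67 (NCBI gene 17345), the Ki-67 antigen, had 162 ± 51.8, with 94.1 in replicate 1, a median of 170 and 245 in replicate 6. Its other probe set was below the floor on all 7 arrays with a mean of 14.1, so its signal rests on a probe set designed by looser rules (suffix _r_at). Top2a (NCBI gene 21973), the topoisomerase that untangles chromosomes, had 14.5 ± 8.79, between 8.50 and 33.9 with a median of 10.8. The spindle checkpoint kinase Bub1 (31.2 ± 12.5) was below the floor on all arrays, the spindle kinase Aurka (40.8 ± 13.4) on 5, and Cdc25c had 95.1 ± 14.4.

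Genes of G2 and mitosis are known for a promoter element called CHR. Its letters TTTGAA, searched on both strands, stood in 28.6% of the windows of these genes, in 12.9% of the windows of all array genes and in 17.9% of all windows. In the mitosis group 5 of 7 genes with a window held them, and in the group of S, G2 and M cyclins 3 of 4 did. The letters CCAAT, which often stand near the element, were in 63.3% of the windows of these genes and in 37.0% of those of all array genes. The windows of 5 genes of these groups are shown next, in the same manner with the CHR letters in capitals.

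Mki67, chr7:135716473-135716512, minus strand: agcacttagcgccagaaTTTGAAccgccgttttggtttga
Top2a, chr11:99024346-99024385, minus strand: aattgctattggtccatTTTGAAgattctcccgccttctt
Cdk1, chr10:69352961-69353000, minus strand: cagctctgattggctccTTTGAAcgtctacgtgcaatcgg
Cdc20, chr4:118437344-118437378, minus strand: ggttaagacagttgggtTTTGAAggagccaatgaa
Ccnf, chr17:24251517-24251556, minus strand: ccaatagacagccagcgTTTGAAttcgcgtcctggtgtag

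Of these 5 genes, Cdc20 and Ccnf reached the minimum. Over all 45 genes with a window, 8 of the 20 with E2F or CHR letters reached it (40.0%), against 17 of the 25 with neither (68.0%). Over all array genes the shares were 54.5% and 55.9%. The difference among these genes was not tested.

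The anaphase promoting complex is the ubiquitin ligase that ends mitosis. Its subunit Cdc26 had 515 ± 91.2, between 441 and 703 with a median of 475, and replicate 3 stood above all others. Cdc16 had 285 ± 35.7, between 252 and 337 with a median of 267. Cdc23 had 87.3 ± 13.0, between 72.5 and 105 with a median of 85.2. Cdc16 and Cdc26 reached the minimum.

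All 4 measured genes of the transcription group reached the minimum. These proteins act on RNA polymerase II rather than on the cell cycle, except that Cdk7 also activates other CDKs. Cdk8, the kinase of the Mediator complex, had 985 ± 58.3, between 905 and 1078 with a median of 985, and its values lay within 1.19-fold. Cdk9, which releases paused polymerase, had 893 ± 132, with 611 in replicate 1, a median of 929 and a highest of 1000.0. Replicate 1 lay apart from the other 6 arrays, which ran from 881 upward. A single array lay apart in this way, by Dixon's ratio, in 3 of the 28 tested genes (Cdc25a, Cdc26 and Cdk9), beside 6.2% of all genes tested. Ccnc, the cyclin of Cdk8, had 350.0 ± 39.8, between 286 in replicate 3 and 422 in replicate 4 with a median of 348. Cdk7 had 205 ± 36.1, between 163 and 245 with a median of 205.

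Among 8 further cyclins and CDKs, 6 reached the minimum. Ccni, an atypical cyclin with no set CDK partner, had 2118 ± 177, between 1963 and 2439 with a median of 2029.5. Cdk18, a kinase of the PCTAIRE family, had 997 ± 55.6, between 925 and 1097 with a median of 983. Cdk5, the kinase known from neurons, had 621 ± 57.1, between 562 and 730 with a median of 610. The values of Cdk18 lay within 1.19-fold, those of Cdk5 within 1.30-fold.

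Cdk16, also of the PCTAIRE family, had 463 ± 72.8, between 359 and 550 with a median of 489. Ccng1 (NCBI gene 12450), cyclin G1, a known target of p53, had 237 ± 37.3, with 177 in replicate 7, a median of 231 and 290 in replicate 1. Ccng2, cyclin G2, a relative that rises in cells that stop dividing, had 230 ± 66.1, with 147 in replicate 8, a median of 225 and 354 in replicate 4. Replicate 4 stood above the second highest value of Ccng2, 266. Ccnj (88.8 ± 15.7) and Cdk14 (48.0 ± 14.3) were below the minimum.

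Of the 6 genes listed as Cdc names with other roles, which need not all lie outside the cycle, 5 reached the minimum. Cdc42, a small GTPase of the actin skeleton, had 1254 ± 106, between 1083 and 1384 with a median of 1249. Cdc37, which brings kinases to Hsp90, had 1210 ± 95.0, between 1113 and 1341 with a median of 1209. Cdc34, a ubiquitin-conjugating enzyme, had 883 ± 125, with 748 in replicate 4, a median of 868 and 1125 in replicate 1.

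Cdc123, which helps to assemble translation initiation factor eIF2, had 574 ± 58.6, between 459 and 621 with a median of 608. Cdc5l, a splicing factor, had 290.2 ± 18.5, and Cdc73, of the Paf1 transcription complex, was at 49.9 ± 11.2. Genes that reached the minimum came from every role group but nucleotide supply. Some groups lay below the 54.3% share of all genes. They were nucleotide supply (0 of 2), replication (2 of 10), mitosis (3 of 8) and G1 (3 of 7). Above it were the S, G2 and M cyclins (3 of 5) and the anaphase promoting complex (2 of 3). So were the further cyclins and CDKs (6 of 8), the Cdc names with other roles (5 of 6) and transcription (4 of 4). These differences were not tested.

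Of the 53 genes, 16 had more than 1 probe set, which gave 19 further probe sets. Of those, 3 reached the minimum: the second probe sets of Ccnd1 (413 ± 34.1), Ccni (335 ± 88.3) and Plk1 (209.5 ± 37.7). Another 12 had a mean below the floor, 6 of them on all arrays. The second probe set of Cdk4 lay at 180.4, an 8.48-fold difference from the first for the same gene. The second probe set of Ccnd1 followed the first (r = 0.853 over 7 arrays, as a description) with a smaller spread. For Plk1 the second probe set (209.5) followed the first weakly, with r of 0.263. The third (34.2) was below the floor on 6 of 7 arrays, so its r of 0.248 cannot show whether it followed the first. In 5 genes, the brightest probe set had a suffix such as _f_at, _s_at or _r_at, which marks probe sets that may cross-read similar genes or were designed by looser rules. Among them were Ccni, Plk1, Mki67 and Mcm3.

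**Figure D2:**
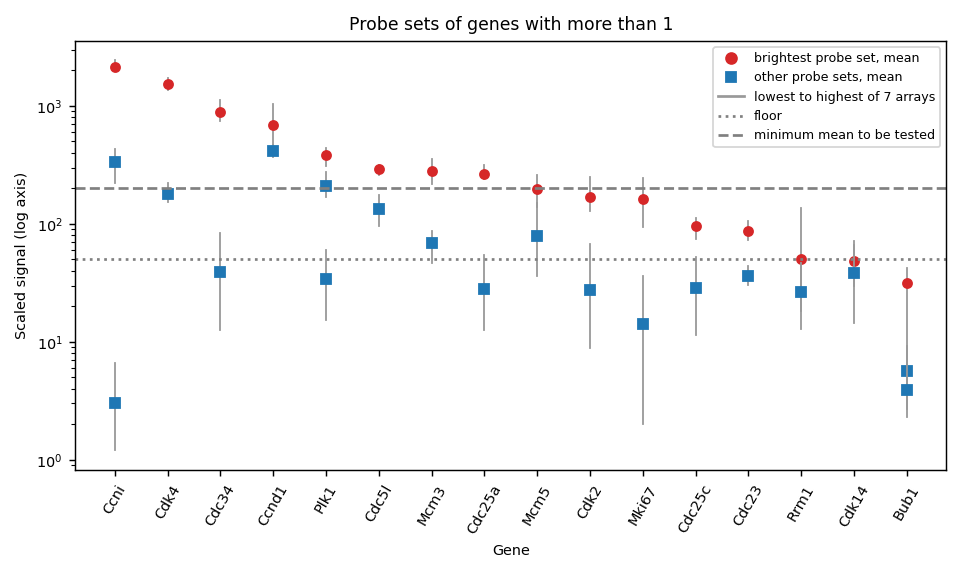
Mean scaled signal (y axis, arbitrary units, log axis) of every probe set of the 16 genes with more than 1, with red circles for the brightest probe set, blue squares for the others and bars from the lowest to the highest of 7 arrays. The dotted line is the floor and the dashed line the minimum mean of 200.1. Beside the brightest probe sets, only the second ones of Ccni, Ccnd1 and Plk1 reach the dashed line.

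The spread between animals was then tested. Each gene's variance of log2 signal was set against the variance expected at its level with limma, with Benjamini-Hochberg adjustment over all 4481 genes tested. None of the 28 genes passed an adjusted p of 0.05, and neither did any of the 4481 (0.0%). At an unadjusted p of 0.05, 0 of the 28 passed, beside 301 of all genes (6.72%). The median log2 SD was 0.18 both for these genes and for all genes, and 10 of the 28 (35.7%) were above the SD expected at their level, beside 49.1% of all genes. These counts lay below those of all genes, and no test of that difference was made.

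Cyclin D1, cyclin A2 and cyclin G2 had the widest spread. The log2 SD of Ccna2 was 0.44 against an expected 0.23 (limma, adjusted p = 0.840). For Ccnd1, it was 0.36 against 0.17 (limma, adjusted p = 0.767), and it was 0.23 with the mean of both probe sets. Ccng2 had 0.40 against 0.28 (limma, adjusted p = 0.990). At the other end, Cdk18 had the smallest log2 SD, 0.08 against 0.16, followed by Cdk8 at 0.09 and Cdc5l at 0.09. The log2 SD of Pcna was 0.20 against an expected 0.17 (limma, adjusted p = 0.990).

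**Figure D3:**
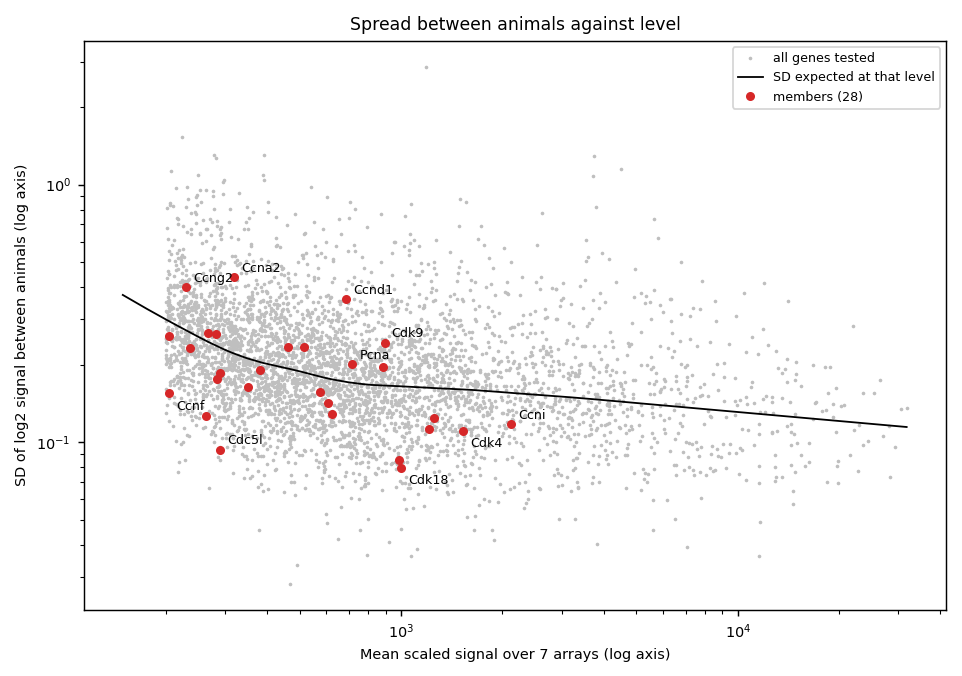
SD of log2 signal over 7 arrays (y axis, log axis) against mean scaled signal (x axis, arbitrary units, log axis) for all 4481 genes tested (grey) and the 28 cyclin, CDK and replication genes (red), with the SD expected at each level (black line). Ccna2, Ccng2 and Ccnd1 lie above the line and Cdk18 and Cdc5l below it. Of the 28 red points, 10 are above the line.

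The median deviation of the 28 genes from their own means ran from −0.08 (log2) in replicate 1 to 0.06 in replicate 7, beside −0.01 to 0.02 for all genes tested. Replicate 1 held the lowest value of 9 of the 28 genes (32.1%), among them Ccnb2, Ccnf, Mcm3, Plk1 and Cdk9, beside 16.6% of all genes tested. It was also the array with the lowest median signal, 157, and its part in these values was not tested. The highest values were spread over the arrays, with 3 to 5 of the 28 on each. Over the 378 pairs of these genes the median correlation was 0.01, beside 0.00 over all pairs of genes tested.

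**Figure D4:**
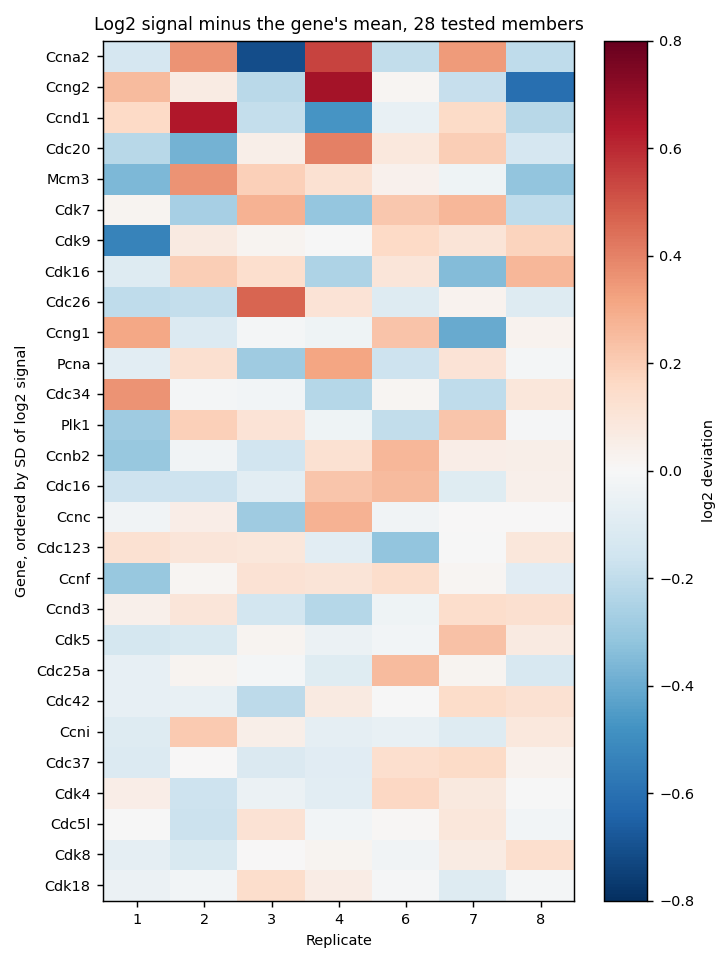
Log2 signal minus the gene's own mean (colour, from −0.8 in blue to 0.8 in red) of the 28 tested genes (rows, ordered by log2 SD) on the 7 arrays (columns). Ccna2, Pcna and Ccnc are low in replicate 3 and high in replicate 4, while Ccnd1 is high in replicate 2.

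Correlations at or beyond 0.9 in size were found for 3 of the 378 pairs (0.794%), beside 0.629% of all 10037440 pairs of genes, so their number was near the background. They were Ccna2 with Pcna (r = 0.955), Ccnc with Pcna (r = 0.917) and Ccng1 with Plk1 (r = −0.919). These pairs were picked after their values were seen and are given with no test. For Ccna2 the 3 highest animals, replicates 4, 2 and 7, had 446, 394 and 388, and for Pcna the same animals had 884, 777 and 767. Replicate 3 was lowest in Ccna2, Pcna and Ccnc.

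The summed signals of the marker lists also differed between animals. That of the 5 measured red cell markers was lowest in replicate 3 (8363) and highest in replicates 4 (13351), 2 (12796) and 7 (12440), and Hba-a1, the alpha globin, made up most of it. Klf1, a defining transcription factor of red cell precursors, was above the floor on every array and did not follow that order, with 317 in replicate 3, 333 in replicate 4 and 524 in replicate 1. The summed signal of 6 endothelial markers was also lowest in replicate 3 (2668) and highest in replicate 4 (4167). Eng made up most of it, with 1627 and 2801 in these animals. Flt1 had the same lowest and highest animals. Pecam1 and Tek were highest in replicate 4 but not lowest in replicate 3. Cdh5 was lowest in replicate 3 (248) and highest in replicate 7 (493). Kdr went the other way, with 418 in replicate 3 and 367 in replicate 4. Slc4a1, of the red cell list, was highest in replicate 3 (217). Alas2 was at 605 in replicate 3 and 601 in replicate 4, and highest in replicates 7 (881) and 2 (751). Epor was lowest in replicate 3 (91.3) and highest in replicates 7 (245) and 4 (217). The order of the red cell sum was mostly that of Hba-a1. The macrophage and B cell sums were lowest in replicate 3 too, but not highest in replicate 4. Macrophage markers ran from 5893 in replicate 3 to 7881 in replicate 7, and B cell markers from 1160 in replicate 3 to 1506 in replicate 1. The remaining sums followed other orders. Stellate markers ran from 6501 in replicate 7 to 8057 in replicate 2, T and NK cell markers from 294 in replicate 2 to 501 in replicate 6, and bile duct markers from 38.8 in replicate 4 to 111 in replicate 2. Hepatocyte markers ran from 149470 in replicate 8 to 188599 in replicate 3. The part of these cells in the signals of Ccna2, Pcna and Ccnc was not tested.

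A list of 20 pairs of partners was examined for values that rise and fall together, by Pearson's r and Spearman's rho of log2 signal over the 7 arrays with exact two-sided permutation tests. In 16 pairs at least 1 gene had no probe set or was below the minimum, so 4 could be tested, with adjustment over these 4. Cyclin D1 and its kinase did not pass: Ccnd1 with Cdk4 had r = −0.197 (exact p = 0.688, adjusted p = 0.954) and rho = 0.0714 (exact p = 0.906, adjusted p = 0.906). Without replicates 2 and 4, r was 0.469. Ccnd3 with Cdk4 had r = 0.167 (exact p = 0.715, adjusted p = 0.954) and rho = 0.286 (exact p = 0.556, adjusted p = 0.906), and r = −0.537 without replicates 3 and 4. Ccnc with Cdk8 had r = 0.0275 (exact p = 0.975, adjusted p = 0.975) and rho = 0.179 (exact p = 0.713, adjusted p = 0.906), and r = −0.236 without replicates 3 and 4. The sign of each of these 3 pairs thus changed when 2 animals were left out.

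Cyclin G1 followed Cdkn1a, the CDK inhibitor p21. Both are textbook targets of p53. Cdkn1a (NCBI gene 12575) had 230 ± 70.6, with 141 in replicate 7, a median of 217 and 326 in replicate 1. Ccng1 was likewise lowest in replicate 7 (177) and highest in replicate 1 (290), with replicate 6 next in both genes, at 274 for Ccng1 and 320 for Cdkn1a. The correlation was r = 0.957 (exact p = 0.00179, adjusted p = 0.00714) and rho = 0.929 (exact p = 0.00675, adjusted p = 0.0270). The pairs were chosen with earlier results of these data known, so these p-values are not those of an independent test.

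The relation kept its sign without replicates 1 and 7 (r = 0.921) and with the means of the spike-in sets removed (r = 0.961). It was 0.950 with the trend on the beta-actin ratio removed and 0.977 with that on the Gapdh ratio removed. It lost the call without replicate 1 (r = 0.937, exact adjusted p = 0.0778), without replicate 6 (r = 0.952, exact adjusted p = 0.0667) and without replicate 7 (r = 0.942, exact adjusted p = 0.05). With the mean of all probe sets of each gene it was r = 0.810 (exact adjusted p = 0.0984). The second Cdkn1a probe set (154 ± 35.2) followed Ccng1 with r = 0.350 and the first Cdkn1a probe set with r = 0.461. Over all alternatives r lay between 0.810 and 0.977 and the exact adjusted p between 0.00318 and 0.0984.

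Set against the other 4480 genes, Cdkn1a ranked 3 by correlation with Ccng1, after Cox7a2l and Slirp, and 16 genes (0.357%) reached 0.9 in size. Among the tested cyclin, CDK and replication genes the highest was Cdc34 (r = 0.764) and the lowest Plk1 (r = −0.919). That value of Plk1 came from its brightest probe set, and the second gave −0.00621. The third gave −0.0340 but was below the floor on 6 arrays, so its r cannot be read either way. These orders are descriptions over 7 arrays.

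The p53 half-site, a motif of 10 bases named here by its factor because its letters need degenerate codes, was searched on both strands of the promoter windows. It stood in 8.36% of all windows and in 1 of the 49 windows of these genes, that of Ccng1. The windows of Ccng1 and Cdkn1a are shown on the strand of the gene, with 1 half-site in capitals.

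Ccng1, chr11:40755442-40755491, minus strand: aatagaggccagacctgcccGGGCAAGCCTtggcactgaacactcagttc
Cdkn1a, chr17:29090908-29090957, plus strand: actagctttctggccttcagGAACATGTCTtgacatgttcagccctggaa

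The match in Ccng1 starts 185 bases before the gene start. Cdkn1a has 2 matches, the one in capitals 51 bases before the start and another, not marked, 73 bases before it.

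**Figure D5:**
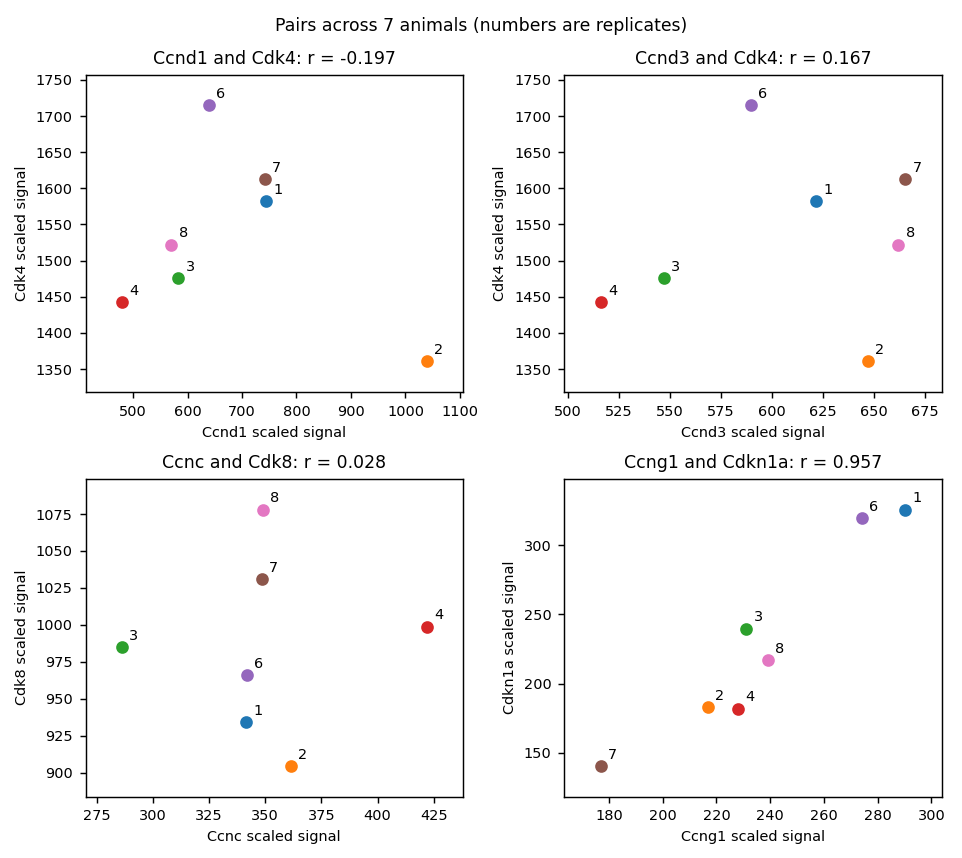
Scaled signals (arbitrary units) of the 4 testable pairs, each point 1 of 7 animals labelled with its replicate number and coloured as in the plot of levels. Ccng1 and Cdkn1a rise together (r = 0.957), whereas replicate 2 departs from the other animals for Ccnd1 and Cdk4 (r = −0.197).

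The regulators around these genes were read from 5 further lists, and 71 of their 90 genes were measured. Of these, 24 were tested (33.8%), beside 54.3% of all genes. None had an adjusted p under 0.05 (limma). An unadjusted p under 0.05 was found for 1 of the 24, beside 6.72% of all genes tested. That gene was Pold2, a subunit of DNA polymerase delta, at 438 ± 152, with 224 in replicate 8, a median of 452 and 603 in replicate 7 (log2 SD 0.57 against an expected 0.20; limma, adjusted p = 0.492). It was read by an _r_at probe set. Of 7 CDK inhibitors Cdkn2c (408 ± 42.1) and Cdkn1a reached the minimum, while Cdkn1b and Cdkn2b were below the floor on all arrays. Of 7 Rb and E2F genes Tfdp1, the partner of E2F (691 ± 109), and Rbl2, the pocket protein p130 (228 ± 23.8), reached it.

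Among 7 regulators of CDKs and parts of the SCF ubiquitin ligase, 5 were tested, with Skp1 at 1813 ± 290 and Cul1 at 718 ± 38.8. The 29 other replication genes had 11 tested (37.9%), and Orc2, Prim2 and Pole2 were below the floor on all arrays. The highest means were those of thymidine kinase Tk1 (1488 ± 171) and the single-strand binding protein Rpa1 (600.3 ± 97.0). The 21 other mitotic genes had 4 tested (19.0%), and Cenpe, Tacc3, Racgap1 and Hmgb2 were below the floor on all arrays. Highest there were the checkpoint protein Bub3 (663.5 ± 50.8) and the transcription factor Foxm1 (626 ± 55.5). Foxm1 was read by a _g_at probe set. Both shares lay below the 54.3% of all genes. In each of these lists no gene passed the test of spread after adjustment.

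The spike-in sets were compared gene by gene. In 2 of the 28 genes (7.14%) the sets did not overlap, beside 7.34% of all genes tested. Cdc37 lay between 1113 and 1209 in replicates 1 to 4 and between 1229 and 1341 in replicates 6 to 8, and its log2 SD of 0.11 was 0.06 with the set as a term. Cdk9 lay between 611 and 929 in the first set and between 948 and 1000.0 in the second. Its log2 SD of 0.24 was 0.07 without replicate 1.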

How the data were processed

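Per the labels, liver RNA of 7 mice was read on 1-colour Affymetrix U74Av2 arrays. The deposited table gives an intensity, linear, for each probe set on each array. How the authors computed the intensities and to what target they scaled them is not given in the sources used here. No detection calls were used. The number of arrays limits the precision.

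In all there were 12488 probe sets, 66 of them controls. Of the rest 10833 had 1 gene symbol in the platform annotation, and 396 with several were left out. Arrays were brought to 1 common trimmed mean (2% at each end), floored at 0.1 of it and log2 transformed. The test took genes averaging 0.4 of it or more. Printed signals are scaled values before the floor. Each gene was represented by the probe set with the highest mean.

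With limma 3.58.1 (R 4.3.3) each gene's variance around its mean was set, by an upper-tail F test, against a robust prior that follows the level (5.61 prior degrees of freedom). These p-values were adjusted by Benjamini-Hochberg over all genes tested. The step was tested on simulated data. Correlations used all 5040 pairings (scipy 1.17.1, Python 3.11.15). Promoter windows came from RefSeq GRCm38.p6, and all 53 genes were matched to RefSeq by gene identifier.

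The genes, role lists, pathway lists and pairs were chosen with earlier results of these data known. Values are given, in each role list, for up to 3 genes of the highest mean and up to 2 tested genes of the largest log2 SD, for any gene with an unadjusted p under 0.05, and for Mki67, Top2a, Cdk1, Ccnd1, Ccng1 and Pcna. In the pathway lists they are given for up to 2 genes of the highest mean and those with an unadjusted p under 0.05. Other genes were described in addition, among them Cdc45, Ccne1, Cdk2 and Mcm6. Alternatives were other scalings, floors, filters and priors, the mean of all probe sets, the spike-in set as a term and leaving out each array. Those with the trend on a 3' to 5' ratio removed were added after seeing the data.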

Additional observations from a re-analysis of the deposited data

Results flagged for a closer look

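In 3 of the 28 tested genes (10.7%), beside 6.2% of all genes tested, 1 animal lay apart from the other 6 by Dixon's ratio, which by chance marks about 1 gene in 20. Cdc25a was at 314.2 in replicate 6, while the other animals lay between 241 and 268. Cdc26 was at 702.6 in replicate 3, the others between 441 and 550. Cdk9 was at 610.8 in replicate 1, below the others at 881 to 1000.0. These genes belong to different steps: a CDK phosphatase, a subunit of the anaphase promoting complex and a transcription kinase. The log2 SD without the animal was 0.06 in place of 0.13 for Cdc25a, 0.12 in place of 0.23 for Cdc26 and 0.07 in place of 0.24 for Cdk9.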

How the results depend on the processing

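The count of cyclin, CDK and replication genes past the adjusted test of spread was 0 in all 20 alternatives. At an unadjusted p of 0.05 (limma) the count of 0 became 1 with median centring and with the array set as a term (Ccnd1 in both) and 1 with a filter of 0.2 (Cdc45). Leaving out 1 array gave 0 to 2, with Ccnd1 past it without replicate 1, 3, 6, 7 or 8 and Ccna2 without replicate 1. In the main setting 6.72% of all genes tested passed that p, so counts of this size do not set these genes apart. The median signal lay between 198 and 211 and the median log2 SD between 0.14 and 0.21. Of the 4 pairs, 1 passed; none did with the mean of all probe sets, and leaving out 1 array gave 0 to 1. Ccng1 with Cdkn1a stayed positive throughout. The sign of the pairs that had not passed turned: for Ccnd1 with Cdk4, r was 0.142 with the beta-actin trend removed, 0.688 without replicate 2 (−0.501 to 0.688 over the left-out arrays) and 0.469 without both farthest arrays. For Ccnd3 with Cdk4, r was −0.293 with set means removed, −0.295 with the mean of all probe sets, −0.000662 with quantile normalization, −0.0925 without replicate 4 (−0.0925 to 0.512 over the left-out arrays) and −0.537 without both farthest arrays. For Ccnc with Cdk8, r was −0.235 with the beta-actin trend removed, −0.00144 without replicate 1, −0.0854 without replicate 4 (−0.0854 to 0.154 over the left-out arrays) and −0.236 without both farthest arrays. The cause was not tested. Leaving out 1 array lowered the log2 SD by over 1.5 times also for Ccnf (0.15 to 0.09, replicate 1), Cdc34 (0.20 to 0.13, replicate 1), Cdc123 (0.16 to 0.08, replicate 6) and Cdk5 (0.13 to 0.08, replicate 7). No paired analysis was possible because all samples form 1 group. No detection calls separate low signals from background, and 25 of the 53 genes have no test of spread.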
